A study of Mus musculus with 12 samples.

Results

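The gene coding for p53 (Trp53) and 9 genes that p53 is known to activate were followed in mouse embryonic stem cells that lack Id1 and in the same cells after depletion of Zrf1. The 10 genes were Trp53, Mdm2, Ccng1, Phlda3, Trp53inp1, Bax, Bbc3, Pmaip1, Sesn1 and Fas, and they were taken as every probe whose gene name in the scanner output was one of these symbols. This gave 11 of the 55681 probes of a one-colour expression array, 2 for Trp53inp1 and 1 for each other gene, and 10 of the 22590 genes that passed the filter on dim signals. All 11 probes were well above background on all 12 arrays, so no member was lost to the filter.

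The 12 samples fell into 3 groups of 4 arrays each. WT cells were wild type embryonic stem cells. Id1KO cells were an Id1 knockout embryonic stem cell line, and Id1KO_Zrf1KD cells were the same knockout line after lentiviral delivery of pLKO vectors with Zrf1 shRNAs and puromycin selection of a stable population. All cells grew in GMEM with serum and LIF. Id1 is a dominant-negative helix-loop-helix protein that keeps its basic partners off DNA, and Zrf1, a ribosome-bound cochaperone with a J domain, carries the name Dnajc2 on the array. No knockout cells with a control hairpin and no wild type cells with the Zrf1 hairpins were analysed here, so the effect of Zrf1 loss cannot be told apart from that of infection and selection, and it was measured only without Id1. The labels name 1 line per genotype, so p-values measure the spread between samples of a line, which may be technical, and a difference between WT and Id1KO cannot be told apart from a difference between these lines.

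p53 is a transcription factor that is held at a low level by the ubiquitin ligase Mdm2, whose own gene p53 activates, so the pair forms a feedback loop. Stress stabilises the p53 protein, which then switches on genes that stop the cell cycle, repair damage, limit growth signalling or start apoptosis through mitochondria or death receptors. Mouse embryonic stem cells are known for abundant p53 protein of which much lies in the cytoplasm, and for a short G1 phase with little arrest there. Transcript levels of Trp53 say little on the amount of active protein, which arrays do not measure.

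p53 binds a pair of consensus decamers, and the promoters of the members were searched for them to show where such sequence lies. RefSeq windows (build GRCm38.p6) from 250 bases before to 50 bases after the annotated start were at hand for 8 of the 10 members, without Trp53inp1 and Pmaip1. An exact p53 consensus decamer, which reads as a consensus on both strands, was present in 5 of these 8 genes (62.5%), against 2582 of 27018 genes with a window (9.56%). All but Trp53 are members because they are known p53 targets, so this describes the list and supports nothing about these cells. The 5 stretches are shown because they hold the exact decamers found in these windows, the only sequence searched. Each has 25 bases on either side and the decamer in capitals.
Trp53: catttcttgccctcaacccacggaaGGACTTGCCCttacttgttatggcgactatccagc
Mdm2: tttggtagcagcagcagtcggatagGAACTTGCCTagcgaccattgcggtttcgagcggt
Ccng1: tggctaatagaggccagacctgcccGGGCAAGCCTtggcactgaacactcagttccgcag
Bax: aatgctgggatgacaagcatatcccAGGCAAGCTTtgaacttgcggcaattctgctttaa
Sesn1: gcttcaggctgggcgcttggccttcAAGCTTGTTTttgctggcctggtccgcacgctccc

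The decamer began 75 bases before the start of Trp53 (stretch at chr11:69580259-69580318, plus strand) and 186 bases before that of Mdm2 (chr10:117710910-117710969, minus strand). It began 185 bases before the start of Ccng1 (chr11:40755437-40755496, minus strand), 201 bases before that of Bax (chr7:45467065-45467124, minus strand) and 173 bases before the second annotated start of Sesn1 (chr10:41887241-41887300, plus strand). In Ccng1, Bax and Sesn1 a further decamer lay within 13 bases, with at most 2 mismatches over the pair. It had to keep only the fixed C and G of the consensus, so mismatches could fall between them. This arrangement was found in 1272 of the 27018 genes (4.71%). In Ccng1 the pair is unbroken, and the bases just before the capitals, agacctgccc, are the other decamer. A match of letters is not a bound site, and windows of Phlda3, Bbc3 and Fas without a match say nothing on sites elsewhere in those genes.

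The depletion of Zrf1 was visible in its transcript. Dnajc2 stood at 2.0 ± 0.12 in WT, 1.89 ± 0.11 in Id1KO and -0.27 ± 0.08 in Id1KO_Zrf1KD (SD, n = 4 each), in log2 units above the 75th percentile of the array, the scale of every level given here. Id1 signal was not lower in Id1KO (1.23 ± 0.31) than in WT (0.86 ± 0.20; adjusted p = 0.052), and no source used here places the deletion relative to the probe, so the array does not check this genotype. Each array had 54.8% to 59.3% of its spots well above background. The 75th percentile of the signal was 393 to 492 units in Id1KO and 554 to 596 in Id1KO_Zrf1KD, ranges that do not overlap, and its part in the results was not tested. Of 13 embryonic stem cell markers, all were above background in every group, and their summed scaled signal was 1182 to 1206 in Id1KO_Zrf1KD, against 1308 to 1472 in WT and 1345 to 1473 in Id1KO. Against Id1KO the lower sum came from Dppa5a, whose mean level was 8.87 in Id1KO_Zrf1KD and 9.53 in Id1KO (log2 -0.67, adjusted p = 2.2e-06; -0.10, adjusted p = 0.12, with quantile normalization). Without Dppa5a the sum was 720 to 741 in Id1KO_Zrf1KD and 649 to 668 in Id1KO (835 to 910 in WT). Of the 13 markers, 7 were higher and 4 lower in Id1KO_Zrf1KD than in Id1KO (32.3% and 39.8% of all genes). Markers of other cell types moved with the knockdown, in a comparison where 32.3% of all genes were higher. All 22 fibroblast markers and all 14 measured endoderm markers were higher in Id1KO_Zrf1KD than in Id1KO (21 of the 22 with normexp background correction). Their summed signal rose from 41.4 to 46.5 units to 147 to 160 units for the fibroblast list (46.0 to 49.4 in WT). For the endoderm list it rose from 126 to 133 units to 411 to 425 units (222 to 235 in WT). In Id1KO against WT, 4 fibroblast markers were higher and 13 lower, and 5 endoderm markers were higher and 7 lower. The shares of all genes there were 42.5% and 29.6%. Sparc weighed most in the endoderm sum, as its brightest gene (means 7.42 in WT, 6.48 in Id1KO and 8.02 in Id1KO_Zrf1KD). Its other probe was lower in Id1KO_Zrf1KD than in WT (log2 -0.64), where the bright one was higher (log2 0.60). Of the fibroblast list, Col5a2 and Lum were not above background in WT and Id1KO. In these bulk samples fewer cells of a type and less RNA per cell cannot be told apart, and the part of these cell states in the results below was not tested.

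In Id1KO against WT, 4 of the 10 genes were higher, 3 were lower and 3 did not pass an adjusted p of 0.05. Differences between these lines were common over the whole array: 42.5% of all genes passed as higher and 29.6% as lower, and 72% in either direction, so the members' counts of 4 and 3 are close to the background. In Id1KO_Zrf1KD against Id1KO, 6 members were higher and 1 was lower, with 3 not passing, against 32.3% and 39.8% of all genes (72.1% in either direction). The split of all genes in this comparison turned with the scaling, from 7294 higher and 8988 lower here to 8035 higher and 7676 lower with quantile normalization and 7990 and 7588 with the deposited values, where 5 members were higher and 1 lower. Against WT, Id1KO_Zrf1KD had 7 members higher and 3 lower, against 32.4% and 32.2% of all genes (64.6% in either direction), and 6 of the 10 were higher with the deposited values. The 4 values of a group did not overlap those of the other for 7 members in Id1KO against WT (65.9% of all genes), 7 in Id1KO_Zrf1KD against Id1KO (67.1%) and all 10 in Id1KO_Zrf1KD against WT (60.9%). The median log2 fold change of the members was 0.15 in Id1KO against WT (all genes 0.15), 0.28 in Id1KO_Zrf1KD against Id1KO (all genes -0.09) and 0.36 in Id1KO_Zrf1KD against WT (all genes -0.02). Every pair of comparisons shares the arrays of 1 group, so the 3 results on a gene are not independent of each other.

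**Figure D1:**
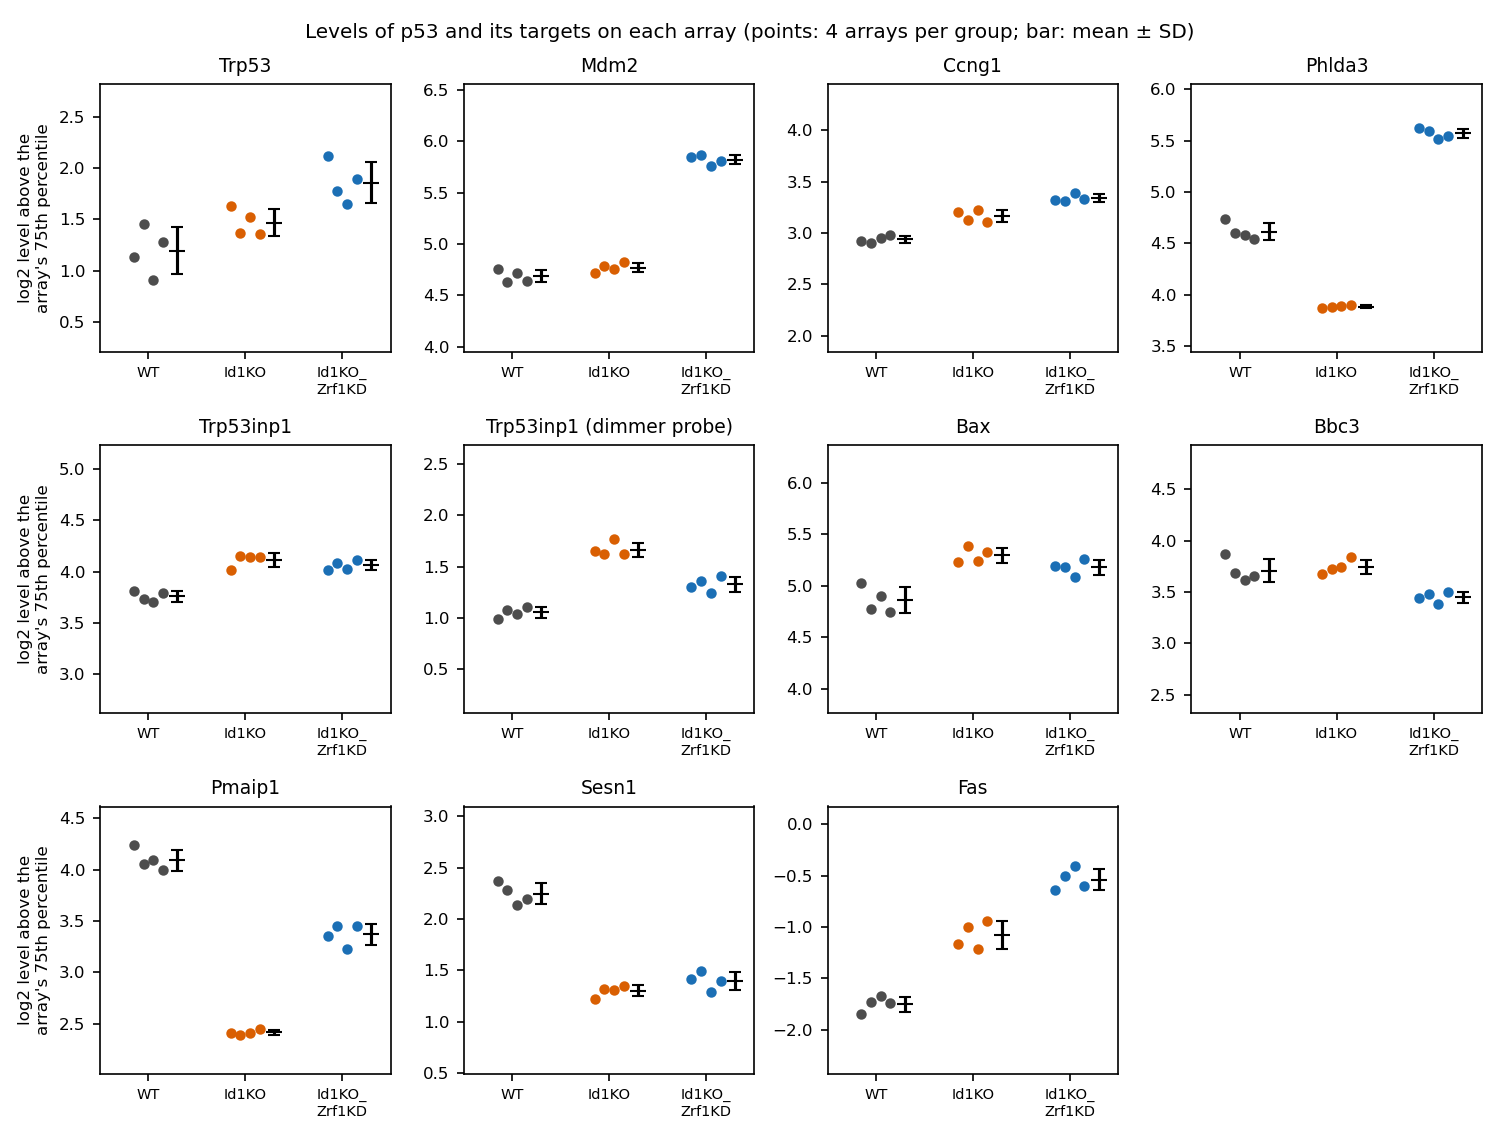
Levels of p53 and its targets on each array, in log2 units above the 75th percentile of that array, for WT, Id1KO and Id1KO_Zrf1KD (points, 4 arrays per group; the bar beside them is the mean ± SD). Phlda3 and Pmaip1 are lowest in Id1KO, Mdm2 is highest in Id1KO_Zrf1KD, Sesn1 is highest in WT, and Fas rises over the 3 groups; the vertical axes differ in position and share a span.

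In the core of the loop, Mdm2 differed mainly in the knockdown. Trp53 had steps of similar size, log2 0.27 from WT to Id1KO and 0.39 from Id1KO to Id1KO_Zrf1KD, of which only the second passed. Trp53 was read by 1 probe, printed in 2 spots, whose 60 bases (chr11:69404204-69404263 in mm9, plus strand) lie in the coding part of the transcript near its end and are shown because all Trp53 values rest on them. RefSeq also lists a Trp53 pseudogene, and binding of its RNA to the probe was not tested.
Trp53 probe: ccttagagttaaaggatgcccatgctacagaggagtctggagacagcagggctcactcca

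The Trp53 levels were 1.14, 1.45, 0.91 and 1.28 in WT, 1.63, 1.37, 1.52 and 1.36 in Id1KO, and 2.12, 1.77, 1.65 and 1.89 in Id1KO_Zrf1KD. The highest WT array lay above the lowest Id1KO arrays, while every knockdown array lay above all others. Trp53 was 1.31-fold higher in Id1KO_Zrf1KD than in Id1KO (log2 0.39 ± 0.13, SE, adjusted p = 0.017) and 1.58-fold higher than in WT (log2 0.66, adjusted p = 0.00075). The first of these calls was lost without Id1KO_Zrf1KD replicate 1 (log2 0.30, adjusted p = 0.051). Id1KO against WT gave log2 0.27 with a 95% interval of -0.01 to 0.55 (adjusted p = 0.073), which passed without WT replicate 2 (log2 0.36, adjusted p = 0.025), and on the second of the 3 slides the difference was -0.10. Its SD within groups was 0.13 to 0.23, the widest of the members in WT and in Id1KO_Zrf1KD.

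Mdm2, the ligase that marks p53 for degradation, was read at chr10:117126010-117126069 in mm9. Its levels were 4.76, 4.64, 4.72 and 4.64 in WT, 4.72, 4.79, 4.76 and 4.82 in Id1KO, and 5.85, 5.87, 5.76 and 5.81 in Id1KO_Zrf1KD. WT and Id1KO overlapped, and the knockdown arrays stood apart from both, with an SD of 0.05 to 0.06 in each group. Mdm2 was 2.07-fold higher in Id1KO_Zrf1KD than in Id1KO (log2 1.05 ± 0.05, SE, 95% interval 0.95 to 1.15, adjusted p = 5e-09), and 93.3% of all genes had a lower log2 fold change in that comparison. Against WT it was 2.19-fold higher (adjusted p = 2.5e-09). Id1KO and WT differed by log2 0.08 (95% interval -0.02 to 0.18, adjusted p = 0.13), a value whose sign turned with quantile normalization.

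Among the 4 genes that act on growth, arrest and stress signalling, Phlda3 had the largest differences in both comparisons with the knockdown and Sesn1 in Id1KO against WT. Ccng1 encodes cyclin G1, which recruits a phosphatase to Mdm2, and was read at chr11:40562427-40562486 in mm9. Ccng1 levels were 2.92, 2.90, 2.95 and 2.98 in WT, 3.20, 3.13, 3.22 and 3.11 in Id1KO, and 3.32, 3.31, 3.39 and 3.34 in Id1KO_Zrf1KD. The 3 groups did not overlap and stood in that order. The steps were small, 1.17-fold from WT to Id1KO (log2 0.23 ± 0.04, SE, adjusted p = 4e-04) and 1.13-fold from Id1KO to Id1KO_Zrf1KD (log2 0.17 ± 0.04, SE, adjusted p = 0.0025). The second step did not pass with quantile normalization (log2 0.09, adjusted p = 0.069) or with the deposited values (log2 0.10, adjusted p = 0.13).

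Phlda3 encodes a pleckstrin homology domain protein that competes with the kinase Akt for membrane lipids and so dampens survival signalling. Its probe lies at chr1:137665642-137665701 in mm9. Phlda3 levels were 4.74, 4.6, 4.58 and 4.54 in WT, 3.87, 3.88, 3.89 and 3.90 in Id1KO, and 5.62, 5.59, 5.52 and 5.54 in Id1KO_Zrf1KD. The groups were clearly separate, and the Id1KO arrays differed from one another by an SD of only 0.01. Phlda3 was 1.66-fold lower in Id1KO than in WT (log2 -0.73 ± 0.05, SE, adjusted p = 1.1e-07) and 3.22-fold higher in Id1KO_Zrf1KD than in Id1KO (log2 1.69 ± 0.05, SE, adjusted p = 2.6e-10), where 97.3% of all genes had a lower log2 fold change. Both comparisons use the Id1KO arrays. Against WT, with which it shares none of them, the knockdown was 1.94-fold higher (adjusted p = 1.5e-08).

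Sesn1 encodes sestrin 1, which restrains the growth kinase complex mTORC1, and was read at chr10:41628012-41628071 in mm9. Sesn1 levels were 2.37, 2.29, 2.14 and 2.19 in WT, 1.22, 1.32, 1.31 and 1.35 in Id1KO, and 1.42, 1.5, 1.29 and 1.40 in Id1KO_Zrf1KD. Both groups without Id1 lay below all WT arrays and overlapped each other. Sesn1 was 1.92-fold lower in Id1KO than in WT (log2 -0.94 ± 0.06, SE, adjusted p = 1.2e-07) and 1.8-fold lower in Id1KO_Zrf1KD (adjusted p = 3.4e-07). From Id1KO to Id1KO_Zrf1KD the difference was log2 0.10, with a 95% interval of -0.04 to 0.24 (adjusted p = 0.17).

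Trp53inp1 encodes a stress-induced protein that takes part in p53 phosphorylation and in autophagy, and it is the member with 2 probes. The brighter probe (chr4:11101174-11101233 in mm9, from base 5041 of the transcript) stood for the gene. The dimmer probe starts at base 659 (chr4:11092530-11092589, plus strand), in the coding part, and is shown because it gave a different answer in the knockdown.
Trp53inp1 dimmer probe: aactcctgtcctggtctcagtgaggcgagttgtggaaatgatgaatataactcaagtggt

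With the brighter probe, Trp53inp1 levels were 3.81, 3.73, 3.70 and 3.79 in WT, 4.01, 4.15, 4.14 and 4.15 in Id1KO, and 4.02, 4.09, 4.03 and 4.12 in Id1KO_Zrf1KD. Both groups without Id1 lay above WT and overlapped each other. The gene was 1.28-fold higher in Id1KO than in WT (log2 0.36 ± 0.05, SE, adjusted p = 3.8e-05) and did not pass between Id1KO_Zrf1KD and Id1KO (log2 -0.05, 95% interval -0.15 to 0.05, adjusted p = 0.35). With the dimmer probe, WT arrays were at 0.99 to 1.11, Id1KO arrays at 1.62 to 1.77 and Id1KO_Zrf1KD arrays at 1.24 to 1.41, all 3 apart. It gave log2 0.61 for Id1KO against WT (adjusted p = 1.3e-06) and -0.33 for Id1KO_Zrf1KD against Id1KO (adjusted p = 0.00017). Both probes were higher in Id1KO_Zrf1KD than in WT, by log2 0.30 and 0.27.

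The 4 death genes moved in different directions. Bax, the pore-forming protein of the mitochondrial outer membrane, was read at chr7:52717122-52717181 in mm9. Bax levels were 5.02, 4.78, 4.90 and 4.75 in WT, 5.23, 5.38, 5.24 and 5.33 in Id1KO, and 5.20, 5.18, 5.09 and 5.26 in Id1KO_Zrf1KD. WT lay below both other groups, which overlapped. Bax was 1.35-fold higher in Id1KO than in WT (log2 0.44 ± 0.07, SE, adjusted p = 0.00014) and 1.25-fold higher in Id1KO_Zrf1KD than in WT (log2 0.32, adjusted p = 0.0016), a call lost with the deposited values (log2 0.16, adjusted p = 0.055). Between Id1KO_Zrf1KD and Id1KO it gave log2 -0.12 (95% interval -0.27 to 0.03, adjusted p = 0.14).

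Bbc3 and Pmaip1 encode PUMA and NOXA, BH3-only proteins that disable the protective members of the Bcl-2 family. Bbc3 (chr7:16903403-16903462 in mm9) had levels of 3.87, 3.69, 3.61 and 3.65 in WT, 3.68, 3.72, 3.74 and 3.84 in Id1KO, and 3.44, 3.48, 3.38 and 3.50 in Id1KO_Zrf1KD. The knockdown arrays lay below all others, and it was the only member lower in Id1KO_Zrf1KD than in Id1KO on the probes that stand for the genes (log2 -0.30 ± 0.06, SE, 1.23-fold, adjusted p = 0.0011). It was also lower than in WT (log2 -0.26, adjusted p = 0.0032), while Id1KO against WT gave log2 0.04 (95% interval -0.10 to 0.17, adjusted p = 0.59), with a sign that turned under other normalizations.

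Pmaip1 had the largest difference between WT and Id1KO among the members. Its probe lies at chr18:66625088-66625147 in mm9, and its levels were 4.23, 4.05, 4.09 and 3.99 in WT, 2.41, 2.39, 2.41 and 2.45 in Id1KO, and 3.36, 3.45, 3.23 and 3.45 in Id1KO_Zrf1KD. The 3 groups were widely separate, with the knockdown between the others. Pmaip1 was 3.19-fold lower in Id1KO than in WT (log2 -1.68 ± 0.06, SE, adjusted p = 1.5e-09), a difference below that of all but 2.36% of genes. In Id1KO_Zrf1KD it was 1.94-fold higher than in Id1KO (log2 0.95 ± 0.06, SE, adjusted p = 1.4e-07) and still 1.65-fold lower than in WT (log2 -0.72, adjusted p = 1.4e-06).

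Fas, the death receptor at the cell surface, was read by a probe in 2 spots at chr19:34402164-34402223 in mm9. Its levels were -1.85, -1.73, -1.68 and -1.74 in WT, -1.17, -1.0, -1.22 and -0.94 in Id1KO, and -0.64, -0.51, -0.41 and -0.61 in Id1KO_Zrf1KD. The groups did not overlap and rose in that order, on signals of 122 to 450 units, the dimmest of the members. Fas was 1.59-fold higher in Id1KO than in WT (log2 0.67 ± 0.08, SE, adjusted p = 9.8e-06) and 1.46-fold higher in Id1KO_Zrf1KD than in Id1KO (log2 0.54 ± 0.08, SE, adjusted p = 5.9e-05). From WT to Id1KO_Zrf1KD the difference was 2.32-fold (adjusted p = 8.9e-08).

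**Figure D2:**
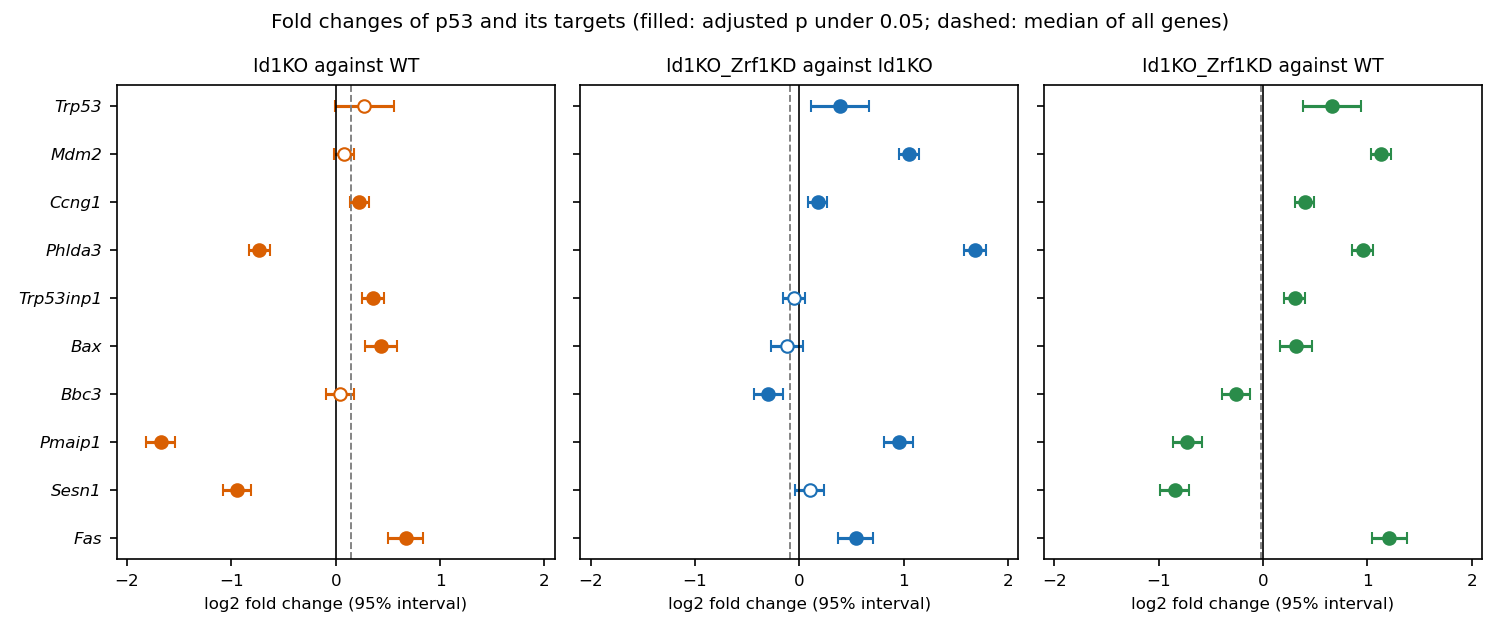
Log2 fold changes of p53 and its targets in the 3 comparisons, with 95% intervals (bars); filled points have an adjusted p under 0.05 and the dashed line is the median of all genes. In Id1KO against WT the points run from -1.68 (Pmaip1) to 0.67 (Fas), and in Id1KO_Zrf1KD against Id1KO from -0.30 (Bbc3) to 1.69 (Phlda3).

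For all members that passed in a comparison, the sign of the difference was the same on each of the 3 slides. Every slide held arrays of every group. For these members the arrays of the compared groups did not overlap, so the sign could not differ between slides and is no further check. Only the size of the difference could vary between slides. For Mdm2 in Id1KO_Zrf1KD against Id1KO the values within slides were 1.07, 1.05 and 1.01. For Phlda3 in that comparison they were 1.70, 1.70 and 1.64, and for Pmaip1 in Id1KO against WT -1.82, -1.60 and -1.64. The values varied more between slides for Bax in Id1KO against WT, at 0.21, 0.56 and 0.49, and for Trp53 in Id1KO_Zrf1KD against Id1KO, at 0.48, 0.42 and 0.16.

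**Figure D3:**
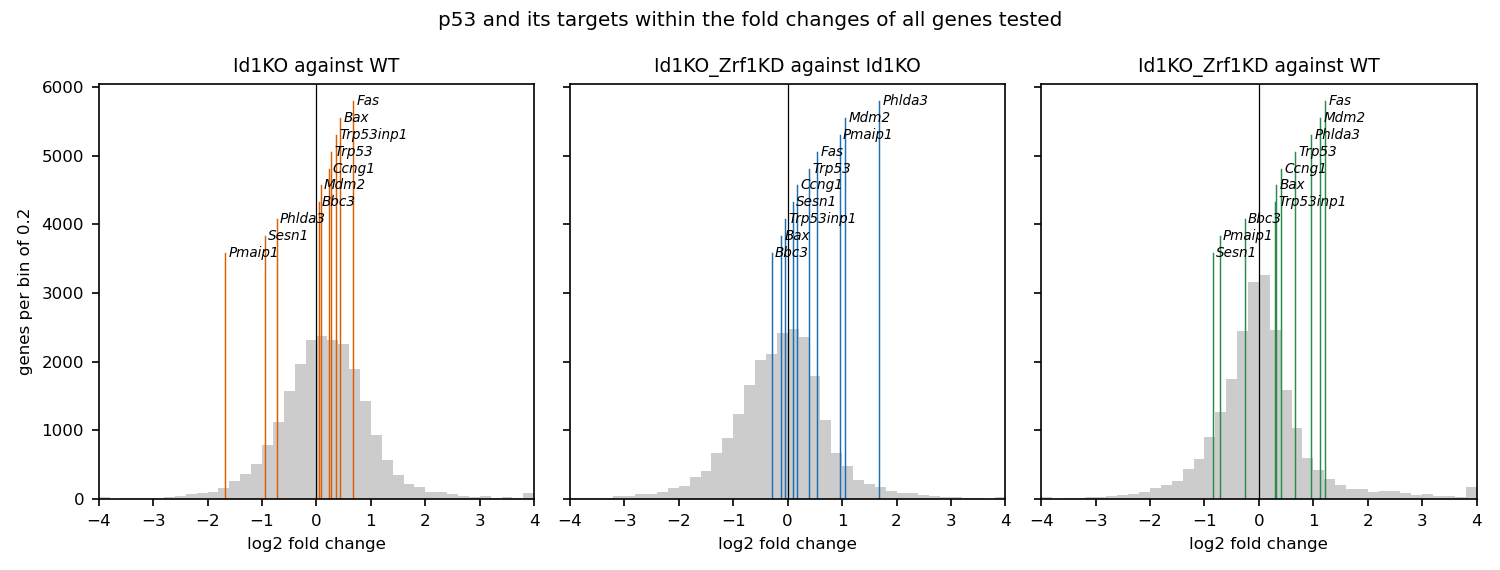
Log2 fold changes of all 22590 genes (grey, number per bin of 0.2; the outermost bins also hold everything beyond the axis) with p53 and its targets as coloured lines, whose height only separates the names. In Id1KO against WT the members lie on both sides of the peak, and in Id1KO_Zrf1KD against Id1KO, Phlda3, Mdm2 and Pmaip1 lie in its right shoulder.

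Likeness in level was described for the 3 members with the widest range of group means, as the root mean square difference of the 12 levels after centring each gene, among 13546 genes with a symbol. For Phlda3 the most similar were Plin2 (0.05), Prnp (0.06) and Prdm2 (0.07). For Pmaip1 these were Gtsf1 (0.07), Igsf21 (0.09) and Fam81a (0.09), and for Fas Tfb2m, Gpatch4 and Ccdc89 (0.08 each). Gtsf1, for example, had a mean of 4.22 in WT, of 2.51 in Id1KO and of 3.45 in Id1KO_Zrf1KD, the same order of groups as for Pmaip1. With 3 groups, many genes can share an order, and these are named by the measure alone.

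Other targets of p53 that act in arrest and repair were mostly higher after the knockdown. Of 23 measured genes on that list (Rrm2b was not tested), 17 were higher and 3 lower in Id1KO_Zrf1KD than in Id1KO, with a median log2 fold change of 0.70 against -0.09 for all genes. In Id1KO against WT, 6 were higher and 9 lower (median -0.12 against 0.15), and in Id1KO_Zrf1KD against WT 15 were higher and 3 lower (median 0.36 against -0.02). Among all genes, 32.3% were higher and 39.8% lower in Id1KO_Zrf1KD than in Id1KO. The shares were 42.5% and 29.6% in Id1KO against WT, and 32.4% and 32.2% in Id1KO_Zrf1KD against WT. This list and those below were chosen with earlier results of these data known. Cdkn1a, the cyclin-dependent kinase inhibitor p21, had means of 2.71 ± 0.10 in WT, 1.0 ± 0.03 in Id1KO and 2.73 ± 0.13 in Id1KO_Zrf1KD (SD, n = 4 each). It fell by 1.71 on the log2 scale in Id1KO (adjusted p = 2.8e-09) and was 1.74 higher in Id1KO_Zrf1KD than in Id1KO (adjusted p = 3.3e-09). Against WT the knockdown gave log2 0.02 (adjusted p = 0.78), a sign that turned with quantile normalization. Its 2 dim probes differed from the bright one, with log2 -0.06 and 2.6 in Id1KO_Zrf1KD against Id1KO, and -0.47 (adjusted p = 0.018) and 1.43 (adjusted p = 4.5e-05) against WT.

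The genes with the highest and lowest values on that list were Cd82, Plk2, Rps27l and Ddb2. Cd82, a membrane protein of the tetraspanin family, had log2 fold changes of -1.82 in Id1KO against WT (adjusted p = 4.3e-10) and 1.76 in Id1KO_Zrf1KD against Id1KO (adjusted p = 7.6e-10). Plk2, a stress-responsive polo-like kinase, was higher in both steps, by log2 0.57 and 2.16. Rps27l, a ribosomal protein paralogue, went the other way, with log2 1.0 and then -0.85. Ddb2, which recognises ultraviolet damage in DNA, was lower in Id1KO_Zrf1KD than in Id1KO and WT by log2 -0.55 and -0.61.

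Of 14 measured targets with a role in cell death (Casp1 was not tested), 8 were higher and 3 lower in Id1KO_Zrf1KD than in Id1KO. The shares of all genes there were 32.3% and 39.8%. In Id1KO against WT, 4 were higher and 8 lower (42.5% and 29.6% of all genes). In Id1KO_Zrf1KD against WT, 6 were higher and 5 lower (32.4% and 32.2% of all genes). The median log2 fold changes of the list were 0.35, -0.24 and 0.13 in that order, against -0.09, 0.15 and -0.02 for all genes. Dram1, a lysosomal protein of autophagy, was higher in Id1KO_Zrf1KD than in Id1KO by log2 1.8 (adjusted p = 4e-06), and by 0.83 with normexp background correction. Trp53i11 was lowest in Id1KO against WT (log2 -1.59), and Siva1, a partner of death receptors, was highest there (log2 1.16). The gene listed as Lrdd, which codes for the caspase-2 activator PIDD, was lower in Id1KO_Zrf1KD than in Id1KO (log2 -0.55, adjusted p = 0.016). Apaf1, the scaffold of the apoptosome, moved by log2 0.21 (adjusted p = 0.036) in that comparison.

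**Figure D4:**
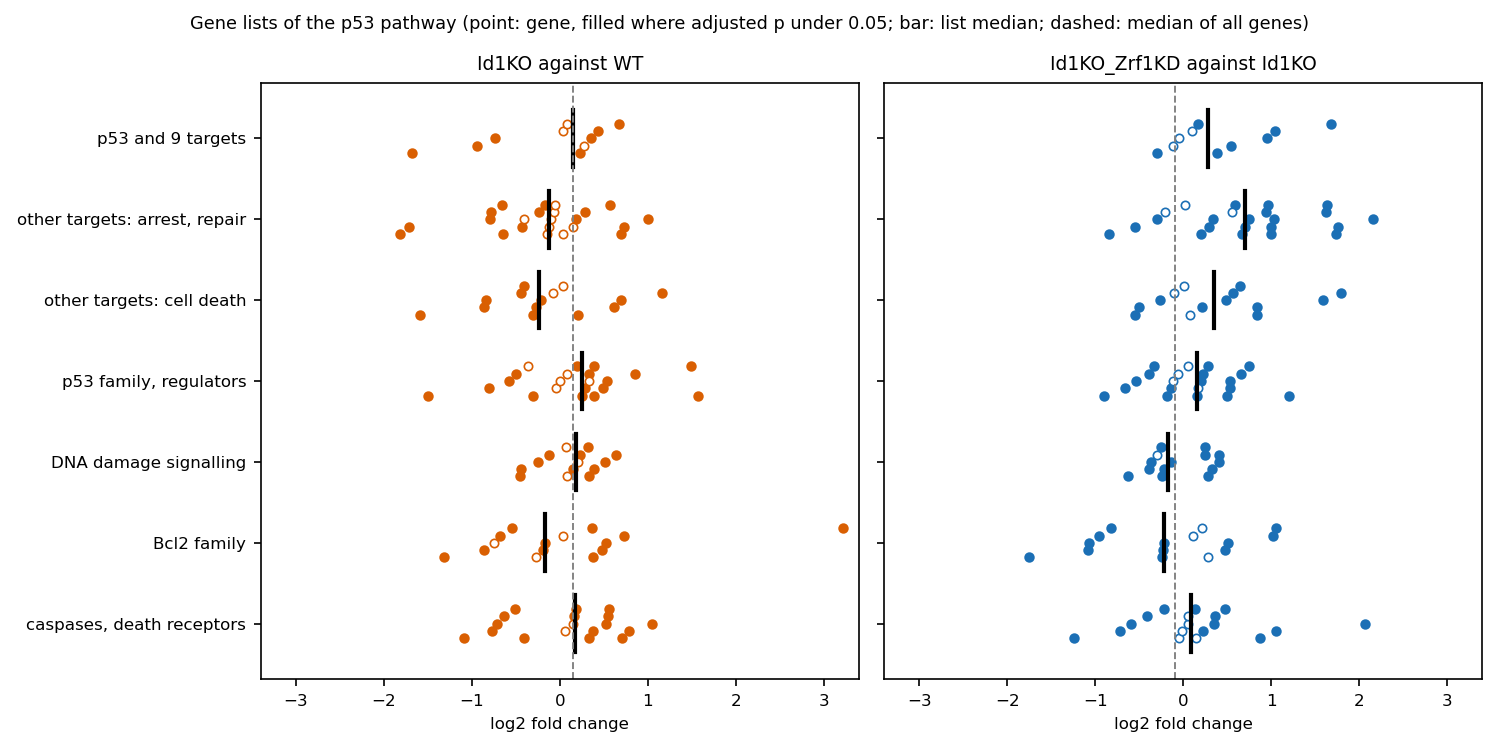
Log2 fold changes of gene lists of the p53 pathway in Id1KO against WT and in Id1KO_Zrf1KD against Id1KO (points are genes, filled where the adjusted p is under 0.05; the bar is the list's median and the dashed line the median of all genes). The arrest and repair targets have a median of -0.12 on the left and 0.70 on the right. The median of the DNA damage signalling genes lies near the dashed line in both.

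Of 21 relatives and regulators of p53, 11 were higher and 5 lower in Id1KO than in WT, with a median log2 fold change of 0.25 against 0.15 for all genes. In Id1KO_Zrf1KD 10 were higher and 7 lower than in Id1KO (median 0.16 against -0.09). The shares of all genes were 42.5% higher and 29.6% lower in the first comparison and 32.3% and 39.8% in the second. Trp63, a p53 relative, rose by log2 1.57 in Id1KO (adjusted p = 6.7e-09) and was 1.77 above WT in the knockdown. Trp73, the other relative, was dim and did not pass in Id1KO against WT (log2 0.33, adjusted p = 0.052), and its fall in the knockdown (log2 -0.39, adjusted p = 0.028) was lost with quantile normalization. Mdm4, the partner of Mdm2 that blocks p53 directly, was lower in Id1KO_Zrf1KD than in Id1KO (log2 -0.66, adjusted p = 0.00021) while Mdm2 was higher. Cdkn2a, whose product ARF sequesters Mdm2, had log2 fold changes of -1.50 in Id1KO against WT and 1.20 in Id1KO_Zrf1KD against Id1KO, on a gene that also codes for p16. Rpl5, a ribosomal protein that can bind Mdm2, had 0.85 and -0.90, and Wwp1, a ubiquitin ligase of p53, was lower in the knockdown than in WT (log2 -1.03).

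The medians of the kinases and sensors of DNA damage lay close to those of all genes, though single genes moved both ways. Of 14, 7 were higher and 4 lower in Id1KO than in WT (42.5% and 29.6% of all genes). In Id1KO_Zrf1KD 6 were higher and 7 lower than in Id1KO (32.3% and 39.8% of all genes). The medians were 0.18 and -0.18, against 0.15 and -0.09 for all genes. Against WT the knockdown had 6 higher and 8 that did not pass, where 32.4% of all genes were higher and 32.2% lower. With the deposited values 2 were lower, and 3 with quantile normalization. Chek2, a checkpoint kinase that phosphorylates p53, had the largest values, 0.64 in Id1KO against WT and -0.62 in Id1KO_Zrf1KD against Id1KO. Mre11a, a nuclease at broken ends, was higher in the knockdown than in Id1KO (log2 0.41), Nbn, its partner, was higher than in WT (log2 0.48), and Brca1, a repair factor, was lower in Id1KO than in WT (log2 -0.45).

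The Bcl-2 family, on which Bax, Bbc3 and Pmaip1 act, did not move as a block. Of 15 further family genes measured (Bcl2a1a and Bcl2a1b were not tested), 6 were higher and 6 lower in Id1KO than in WT (42.5% and 29.6% of all genes). In Id1KO_Zrf1KD 4 were higher and 8 lower than in Id1KO (32.3% and 39.8% of all genes). The protective Bcl2l1 had log2 -0.87 in Id1KO against WT (adjusted p = 8.4e-07) and 1.06 in Id1KO_Zrf1KD against Id1KO (adjusted p = 1.8e-07). Mcl1, the protective protein that NOXA binds, had log2 0.73 in Id1KO and -0.82 in the knockdown against Id1KO, but its other probe gave 1.13 and 0.06. Bcl2 was higher in the knockdown than in WT (log2 0.67, adjusted p = 0.00048), while its rise in Id1KO (log2 0.38, adjusted p = 0.014) did not pass with quantile normalization. Bak1, which forms pores as Bax does, had log2 -0.67 and then 0.48, and the BH3-only gene Bcl2l11 was higher in Id1KO by log2 0.48 (adjusted p = 0.0033). Hrk, also BH3-only, fell in both steps, by log2 -1.32 and -1.08. Bcl2a1d was not well above background in WT and lay at least 3.74-fold higher in Id1KO cells and at least 7.59-fold higher in Id1KO_Zrf1KD cells. Bcl2l10 was well above background on all 4 WT arrays, on 1 of 4 in Id1KO and on none in Id1KO_Zrf1KD, and was at least 2.61-fold lower in Id1KO_Zrf1KD than in WT. These bounds hold for the processed signal and were not met with the normexp correction.

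Downstream, 18 genes of caspases, death receptor signalling and caspase inhibitors were measured (Fasl, the ligand of Fas, was not tested). In Id1KO against WT 10 were higher and 6 lower (42.5% and 29.6% of all genes). In Id1KO_Zrf1KD against Id1KO 8 were higher and 5 lower (32.3% and 39.8% of all genes). Ripk1, a kinase of death receptor complexes, was higher in the knockdown by log2 2.07 against Id1KO, 1.35 with the normexp correction. Cflar, which blocks caspase-8 at Fas, had log2 1.05 in Id1KO against WT and -0.72 in the knockdown against Id1KO, where its other probes gave the opposite sign. Of the caspase inhibitors, Xiap was lower in Id1KO than in WT (log2 -1.09) and Birc2 was lower in the knockdown than in Id1KO (log2 -1.24).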

How the data were processed

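Total RNA was amplified from poly(A) tails and hybridised in 1 colour, per the labels' protocols, so signals favour the 3' end of transcripts. The scanner intensity analysed here is the processed signal of the deposited files, background subtracted per the file headers and not normalized between arrays. The authors also deposited log2 values, used as an alternative, and no source used here gives their normalization. Flags for outlier, saturated and above-background spots are 0 or 1.

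Each intensity was put on a log2 scale and the array's 75th percentile was subtracted. Spots of a probe were averaged without outlier spots. Probes were kept if at least 50% of their spots were well above background on every array of 1 group or more (30879 of 55681), and the brightest stood for its gene name (22590 genes). A fold against a group in which no array measured the probe above background is a lower bound ("at least"), taken against the dimmest probe that was well above background on each of those arrays. One fit over all 12 arrays with limma 3.58.1 in R 4.3.3 gave two-sided moderated tests with Benjamini-Hochberg adjustment over all genes of a comparison and a threshold of 0.05. The number of arrays limits the precision. In simulated data for Id1KO against WT over 22375 genes, the script recovered 79 of 100 genes changed by log2 1 and 21 of 100 changed by log2 0.3. It also called 8 unchanged genes. No other genes were changed there, while 72% of all genes passed in the data. The adjustment was thus stricter in the simulation, and its recovery does not give that of the real comparison.

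The members and the gene lists were chosen with earlier results of these data known. Beyond the members, the text names Id1, Dnajc2, a set of always-named pathway genes and, for each list and comparison, the called genes with the highest and lowest log2 fold change. Alternatives were normexp background correction, quantile normalization, the deposited values, median centring (added after seeing the data), all probes or the mean of a gene's probes, slide or replicate number as a block, and leaving out each array.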

Additional observations from a re-analysis of the deposited data

Results flagged for a closer look

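Of 33 sets of 4 levels examined (11 probes in 3 groups), 1 held a value far from the others, where chance gives about 1 in 20. On the brighter Trp53inp1 probe, Id1KO replicate 1 was at 4.01 and the other 3 at 4.14 to 4.15, a gap of 0.89 of the group's range against a critical value of 0.829. Without that array the direction and call of Trp53inp1 were unchanged in the 3 comparisons.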

How the results depend on the processing

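Of 690 member fold changes recomputed, 678 kept their direction and call, and 275 of 276 counts stayed within 1.5 times. With the mean of a gene's probes, 2 members were lower in Id1KO_Zrf1KD than in Id1KO, Trp53inp1 (log2 -0.19, adjusted p = 0.002) besides Bbc3. The signs that turned were all of differences that did not pass: Mdm2 in Id1KO against WT (-0.077 with quantile normalization, -0.045 with the deposited values), Bbc3 there (-0.00074 with normexp, -0.0502 with quantile, -0.06 with the deposited values) and Trp53inp1 in Id1KO_Zrf1KD against Id1KO (0.0038 with normexp). The cause was not tested. Leaving out 1 array gave 4 to 5 members higher in Id1KO against WT, 5 to 6 higher in Id1KO_Zrf1KD against Id1KO, and no other change in member counts. With quantile normalization the medians of all genes were 0.02, 0.01 and -0.04 in the 3 comparisons, against 0.15, -0.09 and -0.02. Replicate numbers showed no pairing in these values: arrays of the same number had a median correlation of deviations of -0.20, and 1 of 12 arrays was closest to its own number. Most pairs of arrays with the same number lay on different slides, so a pairing by number could not be judged apart from the slide. Arrays of different groups on the same slide had a median of 0.24 (lowest 0.06), against -0.18 for those on different slides. The groups were spread unevenly over the slides, and the main fit had no slide term. With the slide as a block, every member kept its direction and call. With the replicate number as a block the members' counts were again 4 higher and 3 lower, 6 and 1, and 7 and 3, and 9285 of all genes were higher in Id1KO against WT.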

Other observations

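Paralogues of the member genes (6 genes) were also read. In Id1KO_Zrf1KD against Id1KO 4 were higher and 2 lower (32.3% and 39.8% of all genes). In Id1KO against WT 3 were higher and 2 lower (42.5% and 29.6% of all genes). Phlda1, a relative of Phlda3, was higher in the knockdown than in Id1KO by log2 2.91 (adjusted p = 3.3e-11), while Phlda2 had log2 1.45 in Id1KO against WT and -0.72 in the knockdown against Id1KO. Ccng2, the relative of Ccng1, had log2 0.80 and -0.97, where the deposited values gave 0.21 and -0.23. Trp53inp2 had -0.67 and 0.95, the reverse order of signs from Trp53inp1 on its dimmer probe.

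The p53 consensus decamer was also counted in the promoter windows of the other lists. It was present in 7 of 20 arrest and repair targets (35%), 3 of 12 death targets (25%), 2 of 18 regulators (11.1%) and 1 of 15 Bcl-2 family genes (6.67%), against 9.56% of all genes with a window. Caspase and death receptor genes had it in 3 of 16 (18.8%), DNA damage genes in 0 of 9 and paralogues in 0 of 5. Among markers it was in 1 of 10 for embryonic stem cells, 1 of 10 for endoderm and 0 of 13 for fibroblasts. The target lists hold known p53 targets, so their shares describe the lists.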
